A study of Mus musculus with 11 samples.

Results

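The core spliceosome components were 57 of the 21684 genes in the count table. They were chosen by symbol alone: the numbered Sf3a, Sf3b, Prpf and Lsm genes, the genes whose symbols begin with Snrp or U2af, and Fam50a, Eftud2, Cdc5l, Plrg1, Snw1, Aqr and Dhx15. Fam50a is the mouse symbol of the gene that the labels call Xap5, an identity taken from general knowledge of gene names. RNA came from NIH/3T3, an established mouse embryonic fibroblast line, and the groups were WT (2 libraries), Xap5 KO, Nono KO and Sox5 KO (3 libraries each). All 4 groups, WT included, had their medium changed to one without serum for the last 24 h. The labels named no separate clones, so each knockout stood for 1 line, and the p-values measured the spread between these samples, which may be technical.

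The spliceosome removes introns through small nuclear RNAs, each wrapped with proteins into a particle (snRNP). U1 marks the 5′ splice site and U2 the branch site, then a tri-snRNP of U4, U6 and U5 joins, and the PRP19 complex together with helicases drives the assembly through catalysis and release. FAM50A is a nuclear protein that has been found in spliceosomes at the catalytic stage, and most of the other proteins described here are essential for cell growth.

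The libraries held 30205878 to 43498383 counts, and CPM below is the usual depth-scaled count, on TMM-scaled library sizes. All 57 members were among the 13332 genes that passed the expression filter and were tested. The 8 fibroblast markers were all detected, and their summed level was 17462 to 51361 CPM per library. The summed markers of epithelium reached 0.323 CPM at most, those of endothelium 2.79, of muscle 3.86, of blood 13.2 and of neurons or glia 26.6, the last carried by Map2. In bulk RNA, fewer cells of a type and less RNA per cell cannot be told apart. The summed level of 14 S and G2/M cell cycle genes was 523 to 599 CPM in WT and 905 to 1008 in Xap5 KO. It was 535 to 736 in Nono KO, which overlapped WT, and 623 to 662 in Sox5 KO. The part of the cell cycle genes in any result below was not tested.

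The promoter table of RefSeq on GRCm38.p6 matched 45 of the 57 members, with 56 start sites. The 100 bases before the start are shown 5′ to 3′ in the direction of transcription, first for the knocked-out gene (Fam50a). Then come a member called as higher and one called as lower in Xap5 KO against each other group (Dhx15, Prpf38b). The Dhx15 libraries of Xap5 KO and Sox5 KO overlapped. The last are the U1 gene that rose in all 3 knockouts (Snrpc) and 2 Sm genes that rose in Sox5 KO (Snrpd2, Snrpf). Capitals mark the searched motifs, on either strand. The 6 windows lie at chrX:74312933-74313032 (+), chr5:52190547-52190646 (-), chr3:108911730-108911829 (-), chr17:27839987-27840086 (+), chr7:19149738-19149837 (+) and chr10:93589659-93589758 (-), in that order.
Fam50a: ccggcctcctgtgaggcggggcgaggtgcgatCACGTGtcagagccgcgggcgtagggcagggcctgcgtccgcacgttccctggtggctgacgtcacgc
Dhx15: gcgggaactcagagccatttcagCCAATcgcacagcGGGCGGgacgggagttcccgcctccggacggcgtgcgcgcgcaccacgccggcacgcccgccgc
Prpf38b: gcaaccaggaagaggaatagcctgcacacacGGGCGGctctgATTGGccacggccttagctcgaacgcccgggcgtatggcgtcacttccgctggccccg
Snrpc: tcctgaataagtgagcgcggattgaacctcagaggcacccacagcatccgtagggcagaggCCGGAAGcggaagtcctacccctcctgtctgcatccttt
Snrpd2: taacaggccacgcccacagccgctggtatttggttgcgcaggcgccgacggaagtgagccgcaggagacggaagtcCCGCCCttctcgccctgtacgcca
Snrpf: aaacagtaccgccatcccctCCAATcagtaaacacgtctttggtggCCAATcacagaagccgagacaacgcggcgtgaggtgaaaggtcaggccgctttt

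Across the 250 bases before each start, on both strands, the ETS motif CCGGAAG was in 26.8% of the members' promoters, against 12.8% of the promoters of tested genes and 6.91% of all promoters in the table. The 14 member genes with this motif included Snrpc, Snrpg, Prpf19, Aqr and each of the numbered Sf3a genes. The CCAAT box (CCAAT) was in 46.4% of the members' promoters and in 35.7% of those of tested genes, and the E-box CACGTG in 10.7% and 7.92%. The GC box GGGCGG was in 48.2% and 55.8%, and TATAAA in 5.36% and 6.94%. The SOX motif AACAAT was in 3.57% of the members' promoters, those of Prpf8 and Snrpn, and in 5.22% of those of tested genes. No searched motif contains another. A match describes letters in a window and is not a bound site.

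Both WT libraries held Fam50a RNA, with levels of 64.8 and 62.9 CPM. The Xap5 KO libraries had 7.49, 7.91 and 7.86 CPM, those of Nono KO 47.2, 49.3 and 46.3, and those of Sox5 KO 107, 121 and 99.6. The 4 groups did not overlap: Xap5 KO was lowest, then Nono KO, WT and Sox5 KO. In Xap5 KO the level was 12.1% of WT (log2 fold change -3.04, SE 0.0879, adjusted p = 7.67e-17 from the quasi-likelihood test of edgeR, adjusted after Benjamini and Hochberg as is every adjusted p below). Between 291 and 325 counts remained per Xap5 KO library, and RNA counts do not show whether any protein was made from them. The change was -0.42 in Nono KO (SE 0.0817, adjusted p = 0.000185) and 0.77 in Sox5 KO (SE 0.0812, adjusted p = 6.09e-08). Fam50a is on chromosome X, where the median of all tested genes in Nono KO was -0.33, and with the chromosome median as an offset the Nono KO call was lost (-0.074, adjusted p = 0.510).

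In Xap5 KO against WT, 9 of the 57 members were higher and 10 lower at an adjusted p under 0.05. Over all 13332 tested genes, 45.5% were called, 23.2% as higher and 22.3% as lower, so the members' share of 33.3% was below the share over all genes. The members' median log2 fold change was 0.00, the same as the median of all tested genes. Of the called members only Fam50a and Snrpc changed by at least 1.5-fold, where 19.5% of all tested genes were called at that size. The calls were spread over the particles, with both directions in the Sm ring, the U2 particle, the LSm ring and the PRP19 group. Without scaling beyond library totals the split was 8 higher and 15 lower. Without WT replicate 1 the count of higher members was 5, and without WT replicate 2 the count of lower members was 6.

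**Figure D1:**
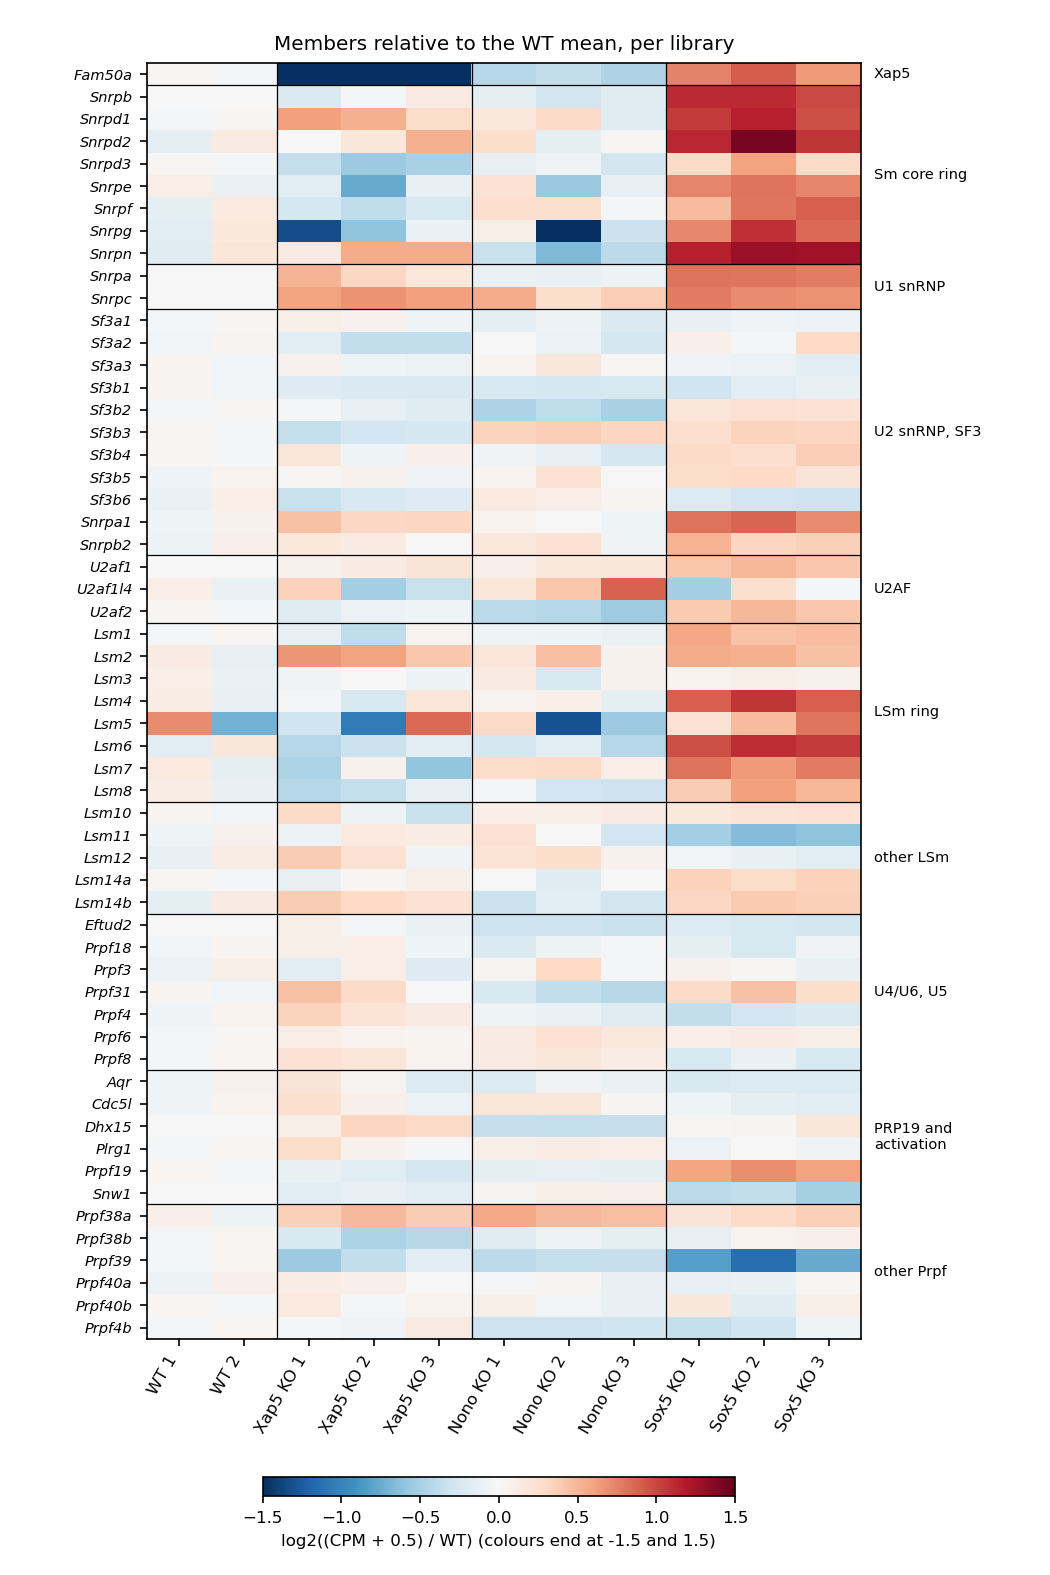
Level of each of the 57 members (rows, grouped by particle) in each of the 11 libraries (columns), as log2 of CPM + 0.5 over the WT mean, with colours ending at -1.5 and 1.5. Fam50a is the darkest row in Xap5 KO, most Sm and LSm ring rows are red in the 3 Sox5 KO libraries, and Lsm5 and Snrpg vary among libraries of 1 group.

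The 8 Sm genes encode the ring that binds the small nuclear RNAs of U1, U2, U4 and U5, with Snrpn as a close relative of Snrpb. In Xap5 KO, 1 of them rose and 1 fell. Snrpd1 had levels of 17.9 and 18.5 CPM in WT and of 28.3, 26.5 and 22.2 in Xap5 KO, without overlap. Snrpd3 had levels of 39.2 and 38.2 CPM in WT and of 30.03, 26.5 and 27.4 in Xap5 KO, also without overlap. The log2 fold change was 0.49 for Snrpd1 (SE 0.127, adjusted p = 0.00353), a rise, while Snrpd3 changed by -0.47 (SE 0.103, adjusted p = 0.000792). With transcript length and GC content as an offset, Snrpd1 did not pass (0.29, adjusted p = 0.0518). The other 6 did not pass the test, with values of -0.62 for Snrpg, -0.33 for Snrpe, -0.32 for Snrpf, -0.02 for Snrpb, 0.25 for Snrpd2 and 0.45 for Snrpn. The summed level of the 8 genes was 250 and 259 CPM in WT and ranged from 223 to 266 in Xap5 KO, which overlapped WT.

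Both U1 proteins of the set rose in Xap5 KO. Snrpc encodes the C protein of U1, which helps U1 hold the 5′ splice site, and had levels of 31.1 and 31.0 CPM in WT. The Xap5 KO libraries had 47.6, 50.04 and 47.9 CPM, those of Nono KO 45.8, 37.4 and 40.3, and those of Sox5 KO 53.7, 51.1 and 49.98. Every knockout library lay above WT, and Xap5 KO lay above Nono KO and overlapped Sox5 KO. The log2 fold change against WT was 0.64 for Xap5 KO (SE 0.0880, adjusted p = 4.83e-06), against 0.41 for Nono KO and 0.73 for Sox5 KO. Snrpa encodes the A protein of U1 and had levels of 61.3 and 60.5 CPM in WT and of 87.2, 75.7 and 68.3 in Xap5 KO. It was higher there (log2 fold change 0.34, SE 0.0803, adjusted p = 0.00166).

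Of the 11 genes of the U2 particle and of SF3, which seats U2 on the branch site, 1 rose and 4 fell in Xap5 KO. Snrpa1, which encodes the A′ protein of U2, rose from 13.9 and 15.2 CPM to 19.9, 18.1 and 18.3 (log2 fold change 0.37, SE 0.111, adjusted p = 0.0105). Sf3b3 had levels of 293 and 287 CPM in WT, of 227, 237 and 240 in Xap5 KO, of 367, 373 and 363 in Nono KO and of 345, 364 and 362 in Sox5 KO. Xap5 KO was thus below WT, and both other knockouts were above it, with no overlap between WT, Xap5 KO and the others. The log2 fold change of Sf3b3 in Xap5 KO was -0.30 (SE 0.0548, adjusted p = 0.000106). Sf3a2 was also at -0.30, Sf3b6, which encodes the p14 protein at the branch adenosine, at -0.27 and Sf3b1, the largest SF3b protein and the one that clasps the branch helix, at -0.21. For Sf3b1 the values were 485 and 461 CPM in WT and 412, 408 and 406 in Xap5 KO, without overlap. The other 6 genes of this group, among them Sf3a1 at 0.03 and Sf3b2 at -0.11, did not pass the test. With the chromosome median as an offset, none of the 4 falls was called, while Sf3b2 was called as lower. Without WT replicate 1 the calls of Snrpa1 and Sf3b1 were lost (adjusted p = 0.126 and 0.0765), and without WT replicate 2 those of Sf3a2 and Sf3b6 (0.139 and 0.245), Sf3a2 also without Xap5 KO replicate 2 or 3 (0.0642 and 0.0514).

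U2AF reads the end of the intron, U2af2 its pyrimidine tract and U2af1 the AG that follows. In Xap5 KO the log2 fold changes were 0.13 for U2af1 (95% interval -0.03 to 0.29), -0.11 for U2af2 (-0.23 to 0.01) and -0.13 for U2af1l4 (-0.69 to 0.44), and none passed the test or an unadjusted p under 0.05. U2af2 was lower in Nono KO, with 128, 127 and 118 CPM against 173 and 168 in WT, and higher in Sox5 KO, with 224, 241 and 225. Those 3 groups did not overlap. The changes of U2af2 were -0.46 in Nono KO (SE 0.0611, adjusted p = 2.30e-06) and 0.43 in Sox5 KO (SE 0.0609, adjusted p = 3.33e-06).

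The LSm ring genes Lsm2 to Lsm8 encode the ring on the end of U6 RNA, and Lsm1 takes the place of Lsm8 in a ring for mRNA decay. In Xap5 KO, Lsm2 rose from 18.8 and 15.7 CPM to 27.5, 26.4 and 22.9, without overlap (log2 fold change 0.57, SE 0.124, adjusted p = 0.000875). Lsm6 had levels of 17.5 and 22.1 CPM in WT and of 14.5, 15.6 and 17.5 in Xap5 KO, where the highest library reached the lower WT library. Its call at -0.32 (SE 0.120, adjusted p = 0.0329) was lost without WT replicate 2, where the value was -0.15 (adjusted p = 0.467), and without Xap5 KO replicate 1 or 2 (0.0893 and 0.0652). The other 6 ring genes did not pass the test, with values between -0.33 (Lsm7) and -0.02 (Lsm4). Among the other LSm proteins, Lsm14b, whose family acts on mRNAs in P-bodies, rose (log2 fold change 0.29, SE 0.0855, adjusted p = 0.00807), a call lost without WT replicate 1 (adjusted p = 0.267). The U7 genes Lsm10 and Lsm11, which serve histone mRNA ends, were at -0.02 and 0.06 and did not pass.

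Among the 7 genes of U4/U6 and U5, Prpf4 alone was called in Xap5 KO. Prpf4, a U4/U6 protein, had levels of 35.8 and 38.6 CPM in WT, of 46.8, 42.8 and 40.8 in Xap5 KO, of 35.6, 34.6 and 32.6 in Nono KO and of 28.6, 30.4 and 32.0 in Sox5 KO. The 3 Xap5 KO libraries lay above all 8 others. The change against WT was small (log2 fold change 0.23, SE 0.0886, adjusted p = 0.0446), and it did not pass with DESeq2 (adjusted p = 0.0606) or without either WT library (0.312 without WT replicate 1 and 0.0817 without WT replicate 2), Xap5 KO replicate 1 or 2 (0.198 and 0.0823) or Sox5 KO replicate 2 (0.0538), nor with the chromosome median as an offset (0.18, adjusted p = 0.124). Eftud2, the U5 GTPase, had levels of 149 and 151 CPM in WT and of 159, 147 and 140 in Xap5 KO, and the groups overlapped. Its difference was -0.01 (95% interval -0.13 to 0.11). Prpf8, the scaffold of the catalytic centre, was at 0.15 (0.03 to 0.27, adjusted p = 0.0563), and its 3 Xap5 KO libraries lay above both WT libraries.

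The PRP19 complex acts at the stage where FAM50A has been found, and the helicases Dhx15 and Aqr were grouped with it here. Of the 6 members in this group, Dhx15 was higher and Prpf19 lower in Xap5 KO. Dhx15, the helicase that takes spent spliceosomes apart, had levels of 176 and 174 CPM in WT, of 186, 220 and 213 in Xap5 KO, of 138, 137 and 138 in Nono KO and of 178, 181 and 198 in Sox5 KO. Xap5 KO lay above WT, Nono KO lay below both, and Sox5 KO overlapped Xap5 KO. The rise was 0.24 (SE 0.0685, adjusted p = 0.00795) and was not called without WT replicate 1 (adjusted p = 0.0577), WT replicate 2 (0.0708) or Xap5 KO replicate 2 (0.0618). Prpf19, the ubiquitin ligase that names the complex, went from 204 and 198 CPM to 187, 179 and 169 (log2 fold change -0.18, SE 0.0589, adjusted p = 0.0190), and its call was lost without WT replicate 1 (adjusted p = 0.122) or Xap5 KO replicate 3 (0.0556). The rest of the group was not called: Cdc5l was at 0.08 (95% interval -0.08 to 0.24), Plrg1 at 0.11 (-0.05 to 0.28), Snw1 at -0.14 (-0.27 to -0.02) and Aqr at 0.02 (-0.15 to 0.19). Snw1 passed with DESeq2 (adjusted p = 0.0464).

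Of the 6 remaining Prpf genes, Prpf38a rose in Xap5 KO, and Prpf38b and Prpf39 fell. Prpf38a joins the spliceosome just before activation and had levels of 26.9 and 24.3 CPM in WT and of 33.0, 36.0 and 33.5 in Xap5 KO (log2 fold change 0.42, SE 0.0905, adjusted p = 0.000800). Prpf38b, its relative, had levels of 100.3 and 105 CPM in WT, of 87.8, 73.8 and 76.8 in Xap5 KO, of 90.7, 96.3 and 93.4 in Nono KO and of 94.6, 107 and 108 in Sox5 KO. The 3 Xap5 KO libraries were below the other 8. Its change was -0.37 (SE 0.0765, adjusted p = 0.000431). Prpf39, a partner of U1, was lower in all 3 knockouts, with a log2 fold change of -0.90 in Sox5 KO, -0.36 in Nono KO and -0.35 in Xap5 KO, and the Xap5 KO call was lost without WT replicate 2 (adjusted p = 0.0686).

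**Figure D2:**
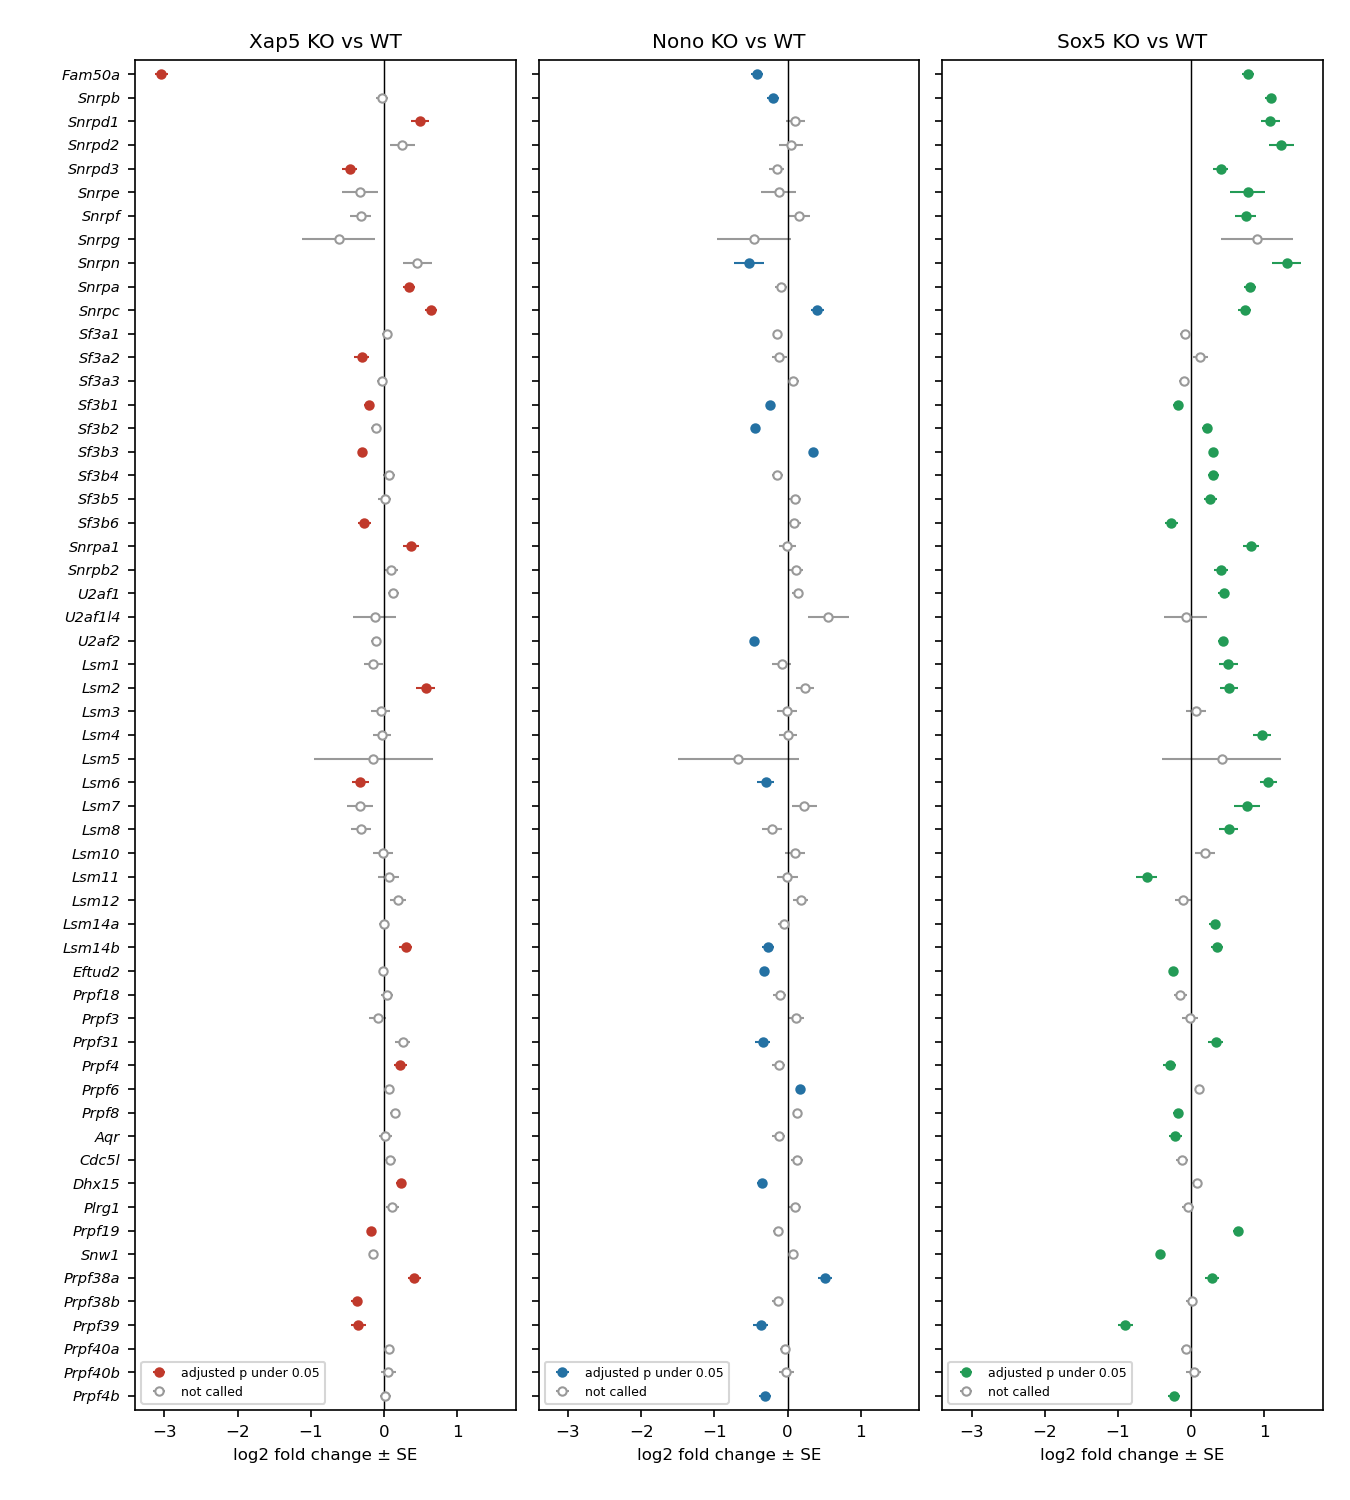
Log2 fold change against WT with its SE for the 57 members in each knockout, filled where the adjusted p was under 0.05 by edgeR. Beside Fam50a, the Xap5 KO values lie between -0.62 and 0.64, while the Sox5 KO values reach 1.31.

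Most of the falls in Xap5 KO were on chromosomes whose genes were lower as a whole. Relative to WT, the median log2 fold change of all tested genes was -0.46 on chromosome 10, -0.35 on chromosome 8, -0.25 on chromosome 6, -0.16 on chromosome 12 and -0.12 on chromosome 14. These 5 chromosomes held 16 members, of which 6 fell, and none of the 4 on chromosome 6 (Lsm3, Lsm5, Lsm8 and Snrpg) was called. Apart from Fam50a, 6 of the 9 called falls were on these chromosomes, whose medians lay below -0.1: Snrpd3 and Sf3a2 on chromosome 10, Sf3b3 and Lsm6 on chromosome 8, and Prpf39 and Sf3b6 on chromosome 12. When each gene was measured against the median of its chromosome, Snrpd3 stood at that median (-0.47 against -0.46), and the values of Sf3b3, Lsm6 and Sf3a2 turned positive at 0.04, 0.03 and 0.16. In the fit with the chromosome median as an offset, 9 members were higher and 5 lower, the latter being Fam50a, Prpf38b, Prpf19, Prpf4b and Sf3b2. Of the 9 rises, 3 were on chromosomes with a median above 0.1 (Snrpc and Lsm2 on chromosome 17, Lsm14b on chromosome 2). Chromosome 17 held 4 members, chromosome 2 held 7 and chromosome 13, also above 0.1, held 1. In the fit with the chromosome offset, Snrpc and Lsm2 passed while Lsm14b did not (adjusted p = 0.160). Lsm4 and Sf3b5, on chromosomes 8 and 10, were called as higher there. What moved whole chromosomes was not tested.

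**Figure D3:**
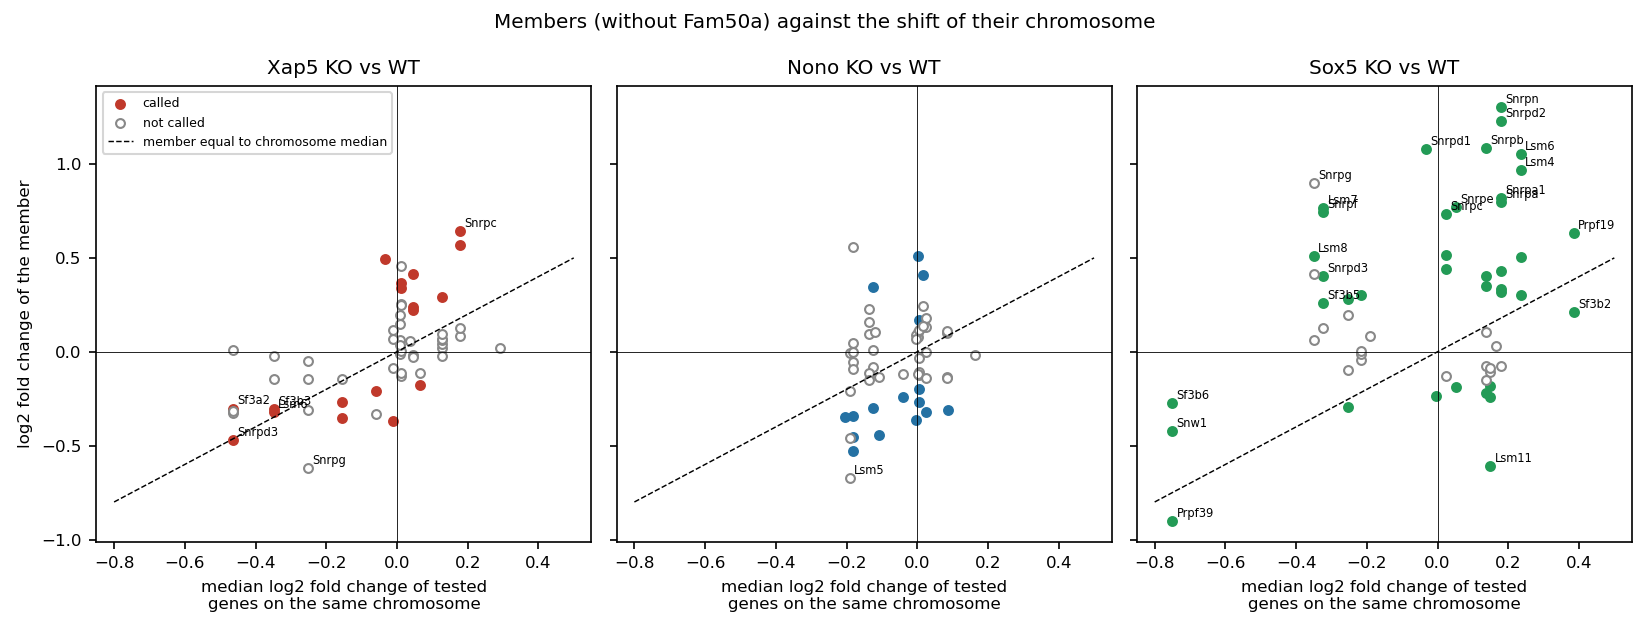
Log2 fold change of each member except Fam50a (vertical axis) against the median log2 fold change of all tested genes on its chromosome (horizontal axis) in each knockout, with the dashed line where both are equal. In Xap5 KO, Snrpd3, Sf3b3 and Lsm6 lie at or near the line, and in Sox5 KO the Sm genes lie above it.

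Other genes of the splicing pathway moved in both directions in Xap5 KO against WT. The counts of these lists stand beside 23.2% of all tested genes called as higher and 22.3% as lower. In Nono KO these shares were 23.5% and 25.1%, and in Sox5 KO 30.6% and 30.3%. Single genes of these lists are named with their Xap5 KO values alone, which does not mark a change as particular to Xap5 KO. Among 13 other snRNP proteins, 4 were higher, with Snrnp40, a U5 protein, at 0.33 and the SF3b subunit Phf5a at 0.32, and the count was 1 with library totals alone. Of 28 other proteins of the PRP19 complex and the catalytic stage, 3 were higher and 8 lower. The falls were led by Cdc40, a step factor of the second reaction, at -0.75 (SE 0.0805, adjusted p = 1.24e-07), with Isy1 at -0.42 and Bcas2, a core PRP19 subunit, at -0.41. The rises were Ppil1 at 0.46, Cwc15 at 0.31 and Bud31 at 0.26. The median of the 28 was -0.03. In Nono KO 3 of the 28 were higher and 6 lower than in WT, and in Sox5 KO 10 and 5. Of 18 other early-stage factors, 4 rose and 5 fell, among them Tia1 at -0.65, Luc7l2, a U1 partner, at -0.42 and the branch site protein Sf1 at 0.20. In Nono KO 3 of the 18 rose and 7 fell, and in Sox5 KO 7 rose and 4 fell.

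In the minor spliceosome, which removes rare introns, 2 of 11 tested genes were higher, Snrnp25 at 0.55 and Zrsr2 at 0.50. The exon junction complex, left on mRNA after splicing, had 2 of 9 higher (Rnps1 at 0.53 and Alyref at 0.27) and 2 lower (Magohb at -0.62 and Acin1 at -0.21). Of 12 genes that assemble snRNPs, 6 were higher and 2 lower, with Gemin6 at 1.121, Gemin8 at 0.63 and Smn1 at 0.48, all of the SMN complex that loads Sm rings, and with Wdr77 at -0.33 and Strap at -0.19. The median of these 12 was 0.23. In Nono KO 4 of the 12 were higher than in WT and 0 lower (median 0.14), and in Sox5 KO 7 and 0 (median 0.39). Nonsense-mediated decay, which removes mRNAs with early stops, had 1 of 10 higher (Smg5 at 0.50) and 3 lower (Smg1 at -0.44, Upf3a at -0.39 and Upf1 at -0.20). The S and G2/M list named above had 11 of 14 higher and 1 lower, with a median of 1.124. In the other knockouts it had 6 higher and 2 lower (Nono KO, median 0.38) and 8 higher and 2 lower (Sox5 KO, median 0.49), where 48.6% and 60.9% of all tested genes were called.

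In Nono KO, 4 members were higher than in WT and 13 lower, where 48.6% of all tested genes were called, 23.5% higher and 25.1% lower. No member was called at 1.5-fold or more, either with edgeR at an adjusted or an unadjusted p under 0.05 or with DESeq2, whereas 21.7% of all tested genes were called and passed it. The rises were Prpf38a (0.51), Snrpc (0.41), Sf3b3 (0.34) and Prpf6 (0.17). The largest falls were Snrpn (-0.53), U2af2 (-0.46), Sf3b2 (-0.44), Fam50a (-0.42) and Prpf39 (-0.36). For Sf3b2, an SF3b protein that touches the pre-mRNA beside the branch site, the libraries had levels of 457 and 467 CPM in WT and of 334, 356 and 329 in Nono KO, without overlap (SE 0.0588, adjusted p = 1.96e-06). Apart from Fam50a, 6 of the 12 called falls were on chromosomes with a median below -0.1. These 8 chromosomes held 25 of the members apart from Fam50a. With the chromosome median as an offset, Fam50a, Snrpn (-0.36, adjusted p = 0.164), Dhx15 (-0.14, 0.111), Prpf31 (-0.17, 0.205) and Lsm6 (-0.18, 0.242) lost their calls, as did the rise of Prpf6 (0.15, 0.0525). The median over the members was -0.05, and over all tested genes -0.02. With library totals alone the median of all tested genes moved to -0.18 and the split to 3 higher and 26 lower. Without WT replicate 2, 8 members were lower, and Snrpn, Prpf39 and Prpf6 lost their calls (adjusted p = 0.375, 0.0660 and 0.0533). Prpf6 also lost its call without WT replicate 1 or Nono KO replicate 2 (0.131 and 0.0779), and Snrpn without Nono KO replicate 2 (0.121) or Sox5 KO replicate 3 (0.05001).

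Sox5 KO had the most member calls of the 3 knockouts, 29 higher and 10 lower. Over all tested genes 60.9% were called, 30.6% higher and 30.3% lower. Members called at 1.5-fold or more numbered 16, and 34.9% of all tested genes were so called. The members' median was 0.28 and that of all tested genes -0.01. With library totals alone, which moved the latter median to -0.12, 25 members were higher and 15 lower. The rises included 7 of 8 Sm genes and 6 of 8 LSm ring genes.

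Snrpb, the most abundant Sm gene by CPM, had levels of 108 and 108 CPM in WT and of 236, 237 and 215 in Sox5 KO. The Sox5 KO values lay far above all others, as the Xap5 KO libraries were at 92.8, 107 and 119 and the Nono KO libraries at 98.3, 89.4 and 95.0. Its log2 fold change was 1.08 (SE 0.0803, adjusted p = 4.96e-10). Snrpd2 went from 21.4 and 25.9 CPM in WT to 52.2, 64.1 and 50.2 in Sox5 KO (log2 fold change 1.23, SE 0.167, adjusted p = 3.79e-05), and it overlapped WT in the other knockouts. Snrpn, at 4.32 and 5.72 CPM in WT and 11.8, 12.8 and 12.6 in Sox5 KO, showed the largest rise of all members at 1.31 (SE 0.196, adjusted p = 9.72e-06). Snrpd1 was at 1.08, Snrpf at 0.75 and Snrpd3 at 0.40. Snrpe was at 0.77, a call that was lost without WT replicate 1 (adjusted p = 0.0660), WT replicate 2 (0.143) or Sox5 KO replicate 2 (0.0520). Snrpg was at 0.90 but did not pass (adjusted p = 0.165), although its 3 Sox5 KO libraries lay above WT.

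The summed level of the 8 Sm genes was 469 to 529 CPM in Sox5 KO, against 250 to 259 in WT, 223 to 266 in Xap5 KO and 215 to 256 in Nono KO. For the 8 LSm ring genes it was 183 to 192 CPM in Sox5 KO and 105 to 121 over the other 3 groups. Lsm6 stood at 39.0, 43.1 and 41.1 CPM in Sox5 KO, above the 14.4 to 22.1 of all other libraries (log2 fold change against WT 1.05, SE 0.118, adjusted p = 1.78e-07). Lsm4 was at 0.97, Lsm7 at 0.76, Lsm2 at 0.52 and both Lsm1 and Lsm8 at 0.51, with Lsm8 not called without WT replicate 2 (adjusted p = 0.0571). Lsm3 at 0.06 and Lsm5 at 0.42 did not pass. Outside the rings, Snrpa1 (0.82), Snrpa (0.80), Fam50a (0.77), Snrpc (0.73) and Prpf19 (0.63) rose.

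**Figure D4:**
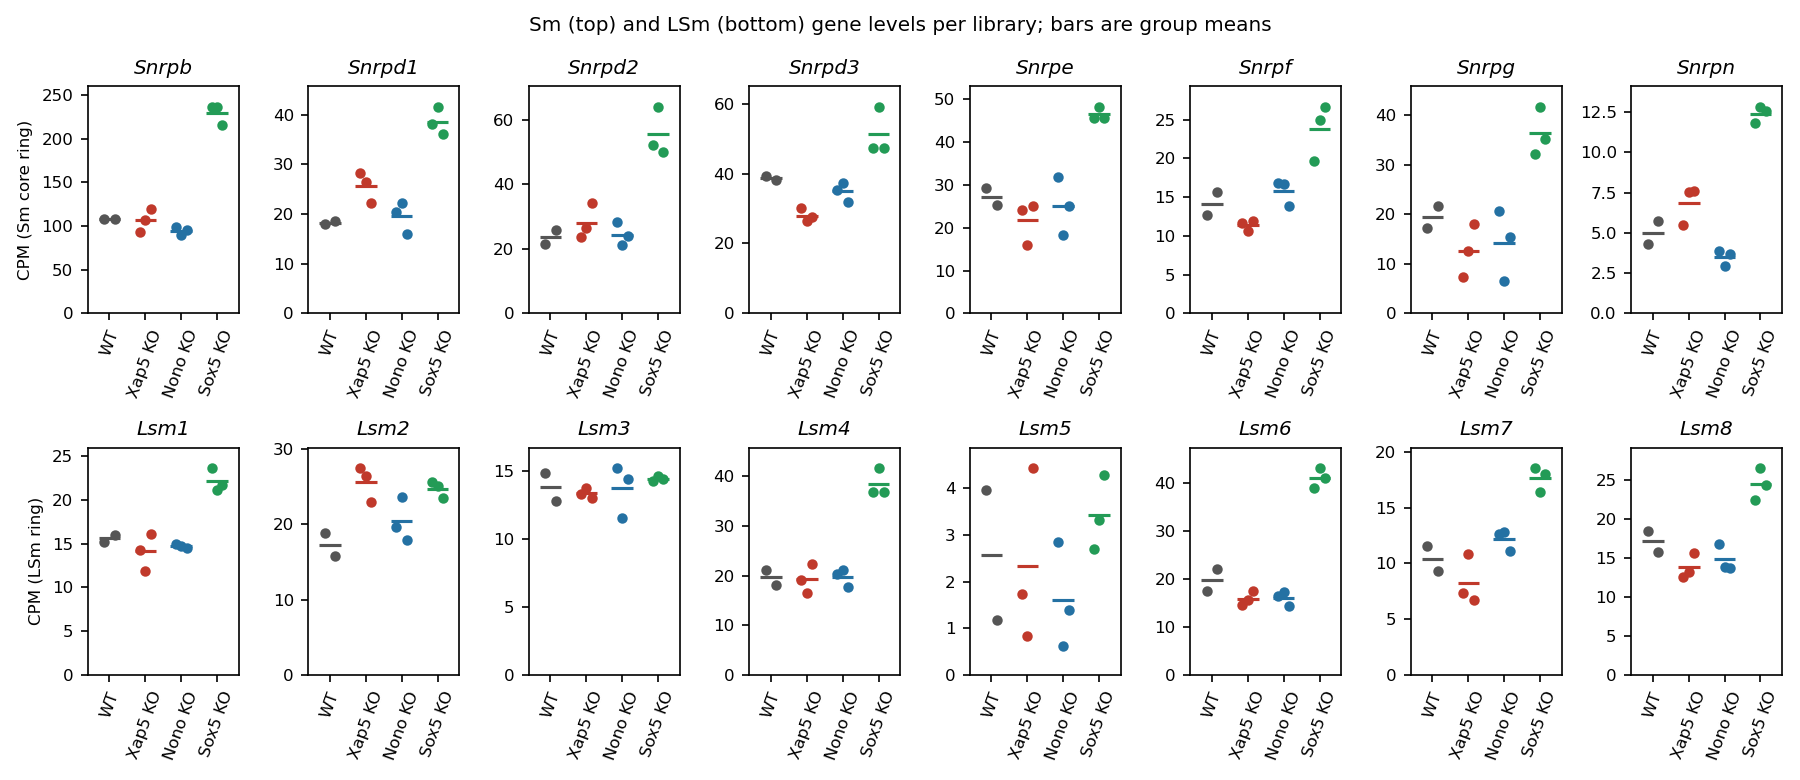
CPM of the 8 Sm genes (top) and the 8 LSm ring genes (bottom) in every library (points) with group means (bars), on linear axes from 0. All Sox5 KO points lie above both WT points for every gene except Lsm3 and Lsm5, and for Lsm2 the Xap5 KO points reach the Sox5 KO level.

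The largest falls in Sox5 KO were Prpf39, Lsm11, Snw1, Prpf4 and Sf3b6. Prpf39 went from 102 and 106 CPM in WT to 58.3, 47.2 and 61.4 (log2 fold change -0.90, SE 0.105, adjusted p = 7.40e-07), and Snw1 from 85.8 and 85.9 to 65.0, 66.5 and 60.7 (-0.42). Neither gene overlapped WT. Both are on chromosome 12, where the median of all tested genes was -0.75, as is Sf3b6 (-0.27). With the chromosome median as an offset, Snw1 and Sf3b6 were higher than in WT, at 0.31 and 0.46, and Prpf39 (-0.17, adjusted p = 0.135) and Prpf4 (-0.059, 0.592) lost their calls. Lsm11 (-0.61) is on chromosome 11, where the median was 0.15, and its call was lost with transcript length and GC content as an offset (-0.19, adjusted p = 0.283). Prpf4 lost its call with that offset too (-0.042, 0.704). All 7 called Sm rises passed with the chromosome offset, and of the 6 LSm ring rises all but Lsm1 (0.26, adjusted p = 0.0784). Without WT replicate 2, 5 members were lower, and Prpf4 and Sf3b6 lost their calls (adjusted p = 0.0885 and 0.197).

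Transcript length moved with the Sox5 KO values. All tested genes were split by longest annotated transcript into 5 classes of about equal size, and from the shortest to the longest class the median log2 fold change was 0.45, 0.18, 0.02, -0.14 and -0.47. The members' medians in the same classes were 0.75, 0.38, 0.16, -0.22 and -0.18, and 19 of the 57 members were in the shortest class, of 204 to 1969 nucleotides. With length and GC content as an offset, 5 of the 7 called Sm genes passed in Sox5 KO, namely Snrpn (1.06), Snrpd2 (0.80), Snrpb (0.72), Snrpd1 (0.52) and Snrpd3 (0.32), and Snrpf (0.22) and Snrpe (0.17) did not. Among the LSm ring genes, Lsm7 (0.28) and Lsm2 (0.13) lost their calls with it. In Xap5 KO the medians of the classes ran only from 0.07 to -0.06. What set the trend with length was not tested.

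Xap5 KO was also set against the other knockouts directly. Against Nono KO, 17 members were higher and 9 lower, where 53.0% of all tested genes were called, 27.1% higher and 25.9% lower. Members called at 1.5-fold or more numbered 5, and 22.2% of all tested genes were so called. With library totals alone, which put the median of all tested genes at 0.12, 23 were higher and 5 lower. The differences were led by Fam50a (-2.62), U2af1l4 (-0.69), Sf3b3 (-0.65) and Lsm7 (-0.56) below, and by Snrpn (0.98), Prpf31 (0.60), Dhx15 (0.58) and Lsm14b (0.56) above. The libraries of U2af1l4 overlapped, and its call was lost without Xap5 KO replicate 2 or 3 or Nono KO replicate 3 (adjusted p = 0.126, 0.109 and 0.164). That of Lsm7 was lost with the chromosome offset (-0.21, adjusted p = 0.286). Prpf31, a U4/U6 protein, had 59.1, 53.2 and 43.7 CPM in Xap5 KO against 36.9, 33.6 and 32.5 in Nono KO, without overlap (SE 0.0940, adjusted p = 1.72e-05). The 2 contrasts with WT share the WT libraries, and this difference does not use them except for the common estimate of spread.

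Against Sox5 KO, 12 members were higher and 27 lower, where 61.6% of all tested genes were called, 31.1% higher and 30.4% lower. Members called at 1.5-fold or more numbered 17, and 31.5% of all tested genes were so called. All 8 Sm genes were lower in the Xap5 KO libraries, from -0.59 for Snrpd1 to -1.52 for Snrpg. The levels of Snrpg were 7.36, 12.6 and 18.03 CPM in Xap5 KO against 32.2, 41.7 and 35.1 in Sox5 KO (SE 0.449, adjusted p = 0.0212), and its call was lost without Xap5 KO replicate 1 or 2 or Sox5 KO replicate 2 (0.0590, 0.0584 and 0.0597). The groups did not overlap for any of the 8. With the length and GC offset, Snrpg (-1.12, adjusted p = 0.0644) and Snrpd1 (-0.23, 0.0683) lost their calls. Members higher in Xap5 KO included Lsm11 (0.67), Prpf39 (0.55), Prpf4 (0.52) and Prpf8 (0.33). Of these, Prpf39 changed sign with the chromosome offset (-0.033) and Prpf8 with the length and GC offset (-0.081), with which Lsm11 lost its call (0.30, adjusted p = 0.0653).

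In the same direction against WT, Nono KO and Sox5 KO, 2 members were higher in Xap5 KO, Dhx15 and Prpf4, and 4 were lower, Fam50a, Snrpd3, Prpf38b and Sf3b3. Over all tested genes 6.65% were higher and 6.68% lower in all 3 contrasts. Dhx15 differed by 0.58 from Nono KO and by 0.15 from Sox5 KO, where the libraries overlapped, and Prpf4 by 0.34 and 0.52. Sf3b3 differed by -0.65 from Nono KO and -0.60 from Sox5 KO, Prpf38b by -0.23 and -0.38, and Snrpd3 by -0.32 and -0.87. With the chromosome median as an offset, the 2 members lower in all 3 contrasts were Fam50a and Prpf19. Of the higher pair, 1 member or none passed under 9 other settings and in 7 of the fits without 1 library. Of the 4 lower members, only Fam50a, the knocked-out gene itself, passed with the chromosome offset or with at least 1.5-fold required.

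Over the 3 contrasts with WT, 14 members were called in none, 19 in 1, 16 in 2 and 8 in all 3 knockouts. Over all tested genes the shares were 19.7% in none, 28.0% in 1, 30.0% in 2 and 22.3% in all 3. Of the 8, Snrpc and Prpf38a were higher and Prpf39 and Sf3b1 lower in every knockout. Fam50a, Lsm6, Lsm14b and Sf3b3 moved in different directions. The 3 contrasts share the 2 WT libraries, so a common direction is not independent evidence from each. Without WT replicate 1, Sf3b1 was called in no knockout (Sox5 KO at -0.16, Xap5 KO at -0.19, Nono KO at -0.20). Without WT replicate 2, Prpf39 was not called for Nono KO or Xap5 KO (both -0.33), nor Prpf38a for Sox5 KO (0.21). Lsm6 and Lsm14b then lost their Nono KO calls (both -0.11). With the chromosome offset, Prpf39 was not called in Xap5 KO (-0.20, adjusted p = 0.0960) or Sox5 KO (-0.17, 0.135), nor Sf3b1 in Xap5 KO (-0.15, 0.0681), and with the length and GC offset Sf3b1 was higher in Sox5 KO (0.19, 0.00483). The spread among libraries of 1 group was small for most members, with a median coefficient of variation of 5.44%. It passed 20% in at least 1 group for Lsm5 (80.6%), Snrpg (50.6%), U2af1l4 (36.3%), Snrpe (26.9%), Lsm7 (26.8%) and Lsm10 (22.5%), whose intervals are wide. In WT, per kilobase of longest transcript, Sf3b2 had the highest level of the members, 143 CPM per kilobase, and Snrpn the lowest, 2.42.

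Some members share sequence with other genes. In the GENCODE M21 transcripts, 18 members shared at least 10% of their 50-base words with another gene, from 97.2% for U2af1l4 and 89.5% for Snrpf to 11.7% for Snrpd2. The genes they shared words with included annotated pseudogenes for 16 of the 18, and none for U2af1l4 and Prpf39. Exons of 18 members overlapped other genes. For 5 members, among them Snrpn with Snurf, the strand was the same, and for 16 it was the opposite one, such as Prpf39 with Fkbp3 and Snrpd3 with Gucd1. The values of these genes, 27 in all, are uncertain where the counting could have mixed the copies or the strands. Among the 30 members with neither, the calls against WT were 13 higher and 6 lower for Sox5 KO, 6 and 6 for Xap5 KO, and 3 and 6 for Nono KO.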

How the data were processed

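RNA was sequenced from serum-starved NIH/3T3 cells in 11 libraries. The values were whole-number gene totals in 1 table deposited by the authors, taken here as estimated counts rounded by the authors. Even values were in excess, and the cause of this was not tested. Counting the mates of a read pair separately would give such an excess, so 1 printed count may not stand for 1 fragment. The submitters' processing notes name HISAT2 2.1.0, StringTie 1.3.3b, DESeq2 1.12.4 and the build GRCm39 (mm39) without saying what each was used for, and the gene annotation and the handling of strand were not given in the sources used here. All value columns were used.

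All contrasts came from 1 fit of the 11 libraries with edgeR 4.0.16 (R 4.3.3): TMM scaling, its expression filter (at least 10 counts in enough libraries and 15 in all), a robust quasi-likelihood fit with 1 mean per group, and Benjamini-Hochberg adjustment over all tested genes, with calls at an adjusted p under 0.05. The biological coefficient of variation common to all genes was 10.6%. At 30205878 counts or more per library, that spread limited most members more than depth did. The fit was tested on simulated data with known changes in Xap5 KO, in far fewer genes than were called here. Those data held no chromosome or length trends, so the test does not cover them. Chromosome, transcript length, GC content and overlaps came from GENCODE M21 (GRCm38), which matched all 57 members, and promoters from RefSeq on GRCm38.p6, so no coordinates of the authors' build are given.

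The members, the other gene lists and the tests were chosen with earlier results of these data known. Members named in full were Fam50a and the 6 other genes chosen by name, those called in Xap5 KO against WT or in all 3 Xap5 KO contrasts, up to the 5 largest calls each way in Nono KO and Sox5 KO, the highest and lowest level per length, and up to 3 calls each way of each other list. Further members illustrate their groups and were chosen after their values were seen. Alternatives were other scalings, DESeq2 1.42.0, other filters and thresholds, fits of the contrast's groups alone, a replicate block, chromosome or length and GC offsets, and leaving out each library. The labels do not say that a replicate number marks a shared batch, so the main fit did not pair libraries by number. The deviations of libraries with the same number were correlated by -0.0226 to 0.0465. Such correlations over all genes cannot exclude a batch that moved some of them.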

Additional observations from a re-analysis of the deposited data

How the results depend on the processing

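With 2 to 3 libraries per group, calls near the threshold depended on single libraries, and where 1 WT library was left out the other was assumed to vary like the other groups. Groups this small were not searched for outlying libraries. The members called higher in Xap5 KO than WT (9) numbered 5 to 12 when each library was left out in turn, and those lower (10) numbered 6 to 10. In Nono KO the ranges were 3 to 5 higher and 8 to 13 lower, and in Sox5 KO 25 to 29 higher and 5 to 10 lower. Against Nono KO, Xap5 KO had 12 to 17 members higher and 8 to 12 lower, and against Sox5 KO 8 to 14 higher and 25 to 27 lower. The members higher in Xap5 KO than in all 3 other groups (2) numbered 0 to 2, and those lower (4) numbered 4 to 5. At an adjusted p under 0.01 by edgeR the counts were 5 lower in Xap5 KO, 8 lower in Nono KO, 6 lower in Sox5 KO, 7 higher in Xap5 KO than Sox5 KO, and 0 higher than in all 3 groups. With at least 1.5-fold required, they were 1 higher and 1 lower in Xap5 KO, 14 and 2 in Sox5 KO, 2 and 3 in Xap5 KO against Nono KO, 1 and 16 against Sox5 KO, and 0 higher and 1 lower than in all 3 groups. In Nono KO the 1.5-fold counts were 0 higher and 0 lower by edgeR, 0 and 0 at an unadjusted p under 0.05, and 0 and 0 by DESeq2. With library totals alone, 26 members were lower in Nono KO than WT and 5 lower in Xap5 KO than Nono KO. The count of members higher in Xap5 KO than in all 3 groups was 1 with RLE scaling, library totals, DESeq2, no filter or a minimum of 50 counts, 0 with only the groups of each contrast in the fit and 0 with the chromosome offset, against 2 at an unadjusted p under 0.05 in edgeR. With the chromosome offset, 5 members were lower in Xap5 KO than WT and 2 lower than in all 3 groups. With the replicate number as a block, 7 members rather than 4 were higher in Nono KO than WT, and no other count moved by over 1.5 times. The members higher in Xap5 KO than WT numbered 12 rather than 9, a smaller move. The blocked fit is given for its counts only, since the labels do not say that a shared number marks a shared batch.

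With the chromosome offset, 12 of the 140 called log2 fold changes of members, over the 5 contrasts, changed sign, and 43 of those not called. Among those called, against WT these were Lsm6 (0.037), Sf3a2 (0.16) and Sf3b3 (0.056) in Xap5 KO and Sf3b2 (-0.19), Sf3b6 (0.46) and Snw1 (0.31) in Sox5 KO. Between Xap5 KO and Nono KO it was Snrpd3 (0.029), and between Xap5 KO and Sox5 KO they were Dhx15 (-0.078), Prpf39 (-0.033), Prpf4b (-0.057), Sf3b2 (0.023) and Snw1 (-0.30). With the length and GC offset, 7 called values and 32 not called changed sign, the 7 being Prpf4b (0.25), Prpf8 (0.34), Sf3b1 (0.19) and U2af1 (-0.10) in Sox5 KO against WT, and Prpf4b (-0.10), Prpf8 (-0.081) and U2af1 (0.12) between Xap5 KO and Sox5 KO. The offsets subtract the chromosome's median or the trend with length and GC by construction, and the cause of either trend was not tested.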
